A study of Arabidopsis thaliana with 12 samples.

Results

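The transcript response of wild type (WT) Arabidopsis thaliana siliques to 1 h of moderate hypoxia was measured on 6 of the 12 ATH1 arrays of the study, 3 from WT hypoxia and 3 from WT control. All 22746 Arabidopsis probe sets of the array entered the comparison, out of 22810 probe sets with the control probes included. WT plants were of the accession Col-0. Complete plants 45 days old stood for 1 h in darkness, in gas with 10.5% oxygen in WT hypoxia and with 21% oxygen, as in ambient air, in WT control, so darkness is common to both. Siliques 11 to 12 days after pollination, in the mid phase of seed maturation, were pooled for each biological replicate, and each value mixes developing seeds with silique wall. The other 6 arrays came from AtHb1 plants under the same hypoxia and control treatments, 3 arrays each. These plants carry the class-1 hemoglobin gene AtHb1 behind the seed-specific LeB4 promoter and belong to 1 transgenic line, L1-1. Their values are given here only where the hypoxia responses or signals of both genotypes were compared, but all 12 arrays shared 1 estimate of the variance, so they also bear on the standard errors and calls in WT.

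Plants sense low oxygen through transcription factors of the ERF group VII, whose amino-terminal cysteine is oxidised by plant cysteine oxidases while oxygen is present, which marks them for degradation. When oxygen falls these factors persist and raise a core set of genes, among them those of ethanolic fermentation, which keeps glycolysis running when respiration slows. The seed inside a silique is a tissue in which oxygen is often low, because the wall and seed coat hinder its diffusion and the growing embryo respires.

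Array medians of the log2 signal lay between 7.49 and 7.58 in WT hypoxia and between 7.45 and 7.48 in WT control. Correlations between arrays of a group were 0.9977 to 0.9983 in WT hypoxia and 0.9947 to 0.9967 in WT control. WT control replicate 3 stood apart for a few genes: 12 probe sets lay over 2-fold above, and 21 over 2-fold below, both other WT control arrays. For the other 5 WT arrays these counts were 0, apart from 1 probe set below on WT hypoxia replicate 1. The array is named below wherever it decides a value. The excess of 3' over 5' probe sets of the array controls, a sign of RNA length, averaged 1.38 to 1.46 in WT hypoxia and 1.25 to 1.36 in WT control. In AtHb1 it was 1.75 to 1.97 under hypoxia and 1.75 to 1.90 at control, above every WT array. Where signals of both genotypes are compared, genotype and this excess cannot be told apart. The gene lists below name each member that was no longer called with this excess as a covariate in the fit. Summed over the 8 named members of a list of pollen genes, the linear signal was 559 to 592 in WT hypoxia and 1270 to 1350 in WT control. The 1 named gene of the tapetum list read 82.6 to 88.8 in WT hypoxia and 88.4 to 98.9 in WT control. No member of the lists of seed storage proteins or oil synthesis is named on the array here, so the seed was checked through the late seed maturation genes alone.

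Within 1 h at 10.5% oxygen, WT siliques raised far more transcripts over 2-fold than they lowered, and the rises were larger. A probe set was called when the adjusted p of limma was under 0.05 and the change exceeded 2-fold. Of the 22746 probe sets, 348 were called higher in WT hypoxia, which is 1.53%, and 66 were called lower, which is 0.290%. At the same adjusted p with no fold limit the numbers were closer, 1979 higher (8.70%) and 1622 lower (7.13%). The median log2 fold change was 1.41 among those called higher and -1.24 among those called lower, against -0.03 over all tested probe sets, where the median standard error was 0.09. A log2 fold change over 2 was reached by 61 probe sets, over 3 by 17 and over 4 by 7, whereas 13 fell below -1.5 and the lowest value was -1.97. That lowest probe set is shared by several genes and carries no name here. In all, 94.8% of the probe sets stayed within 1.5-fold. The 3 WT hypoxia arrays did not overlap the 3 WT control arrays for any of the 414 called probe sets, as was true of 36.2% of all tested probe sets. With 3 arrays in each group an exact permutation test of a gene has p = 0.1 as its smallest value, so all calls depend on the pooled variance estimate of limma. Because RNA came from whole siliques, fewer cells of a type and less RNA per cell cannot be told apart for any gene described here.

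**Figure D1:**
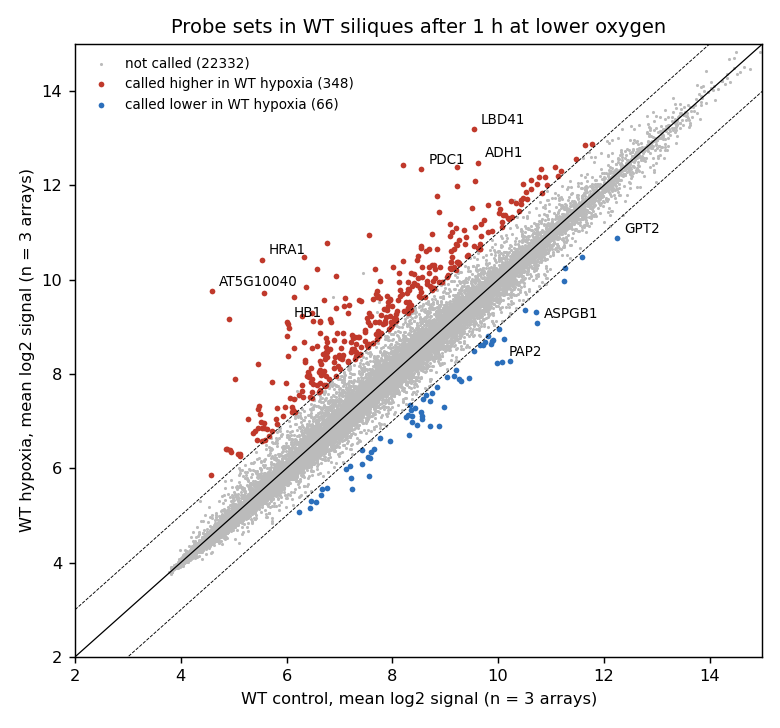
Mean log2 signal over 3 WT hypoxia arrays (vertical axis) against the mean over 3 WT control arrays (horizontal axis), with 1 point for each of 22746 probe sets and the 348 called higher and 66 called lower in colour. Most points lie on the diagonal, and the points above it reach farther from it, up to a log2 fold change of 5.17, than those below it, down to -1.97.

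The control signal of the genes that rose was weak less often than that of the array as a whole. The mean in WT control was under a log2 signal of 6, where probe sets are dim, for 39 of the 348 probe sets called higher, and only 1 was still under it in WT hypoxia. For all tested probe sets the share under 6 in WT control was 29.7%. Of the 66 called lower, 11 dropped under 6 in WT hypoxia. An array annotation or the study's own tables gave a gene to 341 of the probe sets called higher and to 62 of those called lower. Names that come only from the study's tables (177 of the higher and 30 of the lower) belong to genes that the study picked from these samples. The counts of lists that hold them are therefore not independent evidence of a direction. Counts over annotation names are given beside some of these lists. No annotation-named member was called for fermentation (of 2), glycolysis (of 3), alternative respiration (of 2), abscisic acid response (of 1) or photosynthesis (of 1). Nor was any called for heat shock (of 3), flavonoid genes (of 3) or xyloglucan endotransglucosylases (of 3). Called members of abscisic acid metabolism, trehalose-phosphate synthases, hemoglobins, ethylene synthesis and ethylene receptors have study names only.

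Most named genes of the core set that hypoxia is known to raise across Arabidopsis organs rose in the siliques. The list of core hypoxia genes holds 51 loci, of which 42 are named here and the others were not seen. Of these 42 named members, 37 were called higher (against 1.53% of all tested probe sets) and 0 lower, with a median log2 fold change of 2.55. The 16 named only by the study were all called, which raises this share. Over the 26 of them that the array annotation names, 21 were called higher and the median was 2.27. The largest rise of the array was that of AT5G10040, a hypoxia gene of unknown function. It read 9.73, 9.73 and 9.81 in WT hypoxia, against 4.60, 4.56 and 4.58 in WT control. All 3 hypoxia arrays thus lay far above a control signal that was close to the floor of the array, and the log2 fold change was 5.17 (standard error 0.09, adjusted p = 1.11e-13), or 36.1-fold. AT5G66985, also of unknown function, read 9.10, 9.20 and 9.17 in WT hypoxia, against 4.90, 4.86 and 4.95 in WT control. Its log2 fold change was 4.26, with groups as tight and as far apart. AT4G24110, of unknown function too, read 9.67, 9.73 and 9.73 in WT hypoxia, against 5.86, 5.64 and 5.21 in WT control, a log2 fold change of 4.14.

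The genes that sense oxygen and carry its signal were among the strongest. All 5 named members of the list of oxygen sensing factors, of 15 listed, were called higher, against 1.53% of all tested probe sets. Their median log2 fold change was 3.17, but 4 of them are named only by the study. HRA1 (AT3G10040) encodes a trihelix transcription factor that restrains the group VII factor RAP2.12. It read 10.47, 10.30 and 10.51 in WT hypoxia, against 5.56, 5.60 and 5.43 in WT control, and rose 29.8-fold, by 4.89 on the log2 scale (standard error 0.10, adjusted p = 4.80e-13). LBD41, a LOB-domain transcription factor of the core set, read 13.16, 13.19 and 13.20 in WT hypoxia, against 9.62, 9.47 and 9.51 in WT control, and rose by 3.65. PCO2, a plant cysteine oxidase, read 12.36, 12.45 and 12.38 in WT hypoxia, against 9.39, 8.98 and 9.30 in WT control. Its sister PCO1 read 11.75, 11.76 and 11.80 in WT hypoxia, against 8.87, 8.95 and 8.70 in WT control. Both oxidases, which lead to the breakdown of the group VII factors, were thus clearly parted between treatments, with log2 fold changes of 3.17 (PCO2) and 2.93 (PCO1). HRE2, itself a group VII factor, rose less, by 1.25 (standard error 0.10, adjusted p = 5.67e-07), with 6.93, 7.09 and 7.10 in WT hypoxia, against 5.60, 5.99 and 5.79 in WT control.

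Other core members cover stress signals, lipids and the cell wall. WIP4 and WIP5, of the family of wound-induced polypeptides, rose by 4.23 and 4.01. WIP4 read 12.51, 12.33 and 12.44 in WT hypoxia, against 8.20, 8.39 and 8.00 in WT control, and WIP5 read 10.87, 10.77 and 10.69 in WT hypoxia, against 7.05, 6.73 and 6.53 in WT control. SRO5, a stress gene related to the PARP-like protein RCD1, read 10.66, 10.42 and 10.39 in WT hypoxia, against 6.30, 6.55 and 6.14 in WT control. For these 3 genes every hypoxia array stood at least 3.64 log2 units above every control array. SAD6, a stearoyl-ACP desaturase of fatty acid synthesis, read 10.15, 10.24 and 10.26 in WT hypoxia, against 6.92, 6.33 and 6.49 in WT control, a log2 fold change of 3.63. PHI-1, an EXORDIUM-like gene, read 9.84, 9.75 and 9.94 in WT hypoxia, against 6.32, 6.35 and 6.43 in WT control, a change of 3.48. AT3G27220 rose by the same 3.48 and AT5G19120, annotated as similar to the lupin protein conglutin gamma, by 3.14. The 5 named core members that were not called had log2 fold changes between -0.13 and 0.94. They were AT1G19530 (0.94), AT1G05575 (0.80), PDC2 (0.52), FHL (0.11) and AT2G15880 (-0.13), and the first 3 of these passed the adjusted p without reaching 2-fold. With the 3' excess as a covariate AT3G10020 (1.15) fell short of 2-fold at 0.93.

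**Figure D2:**
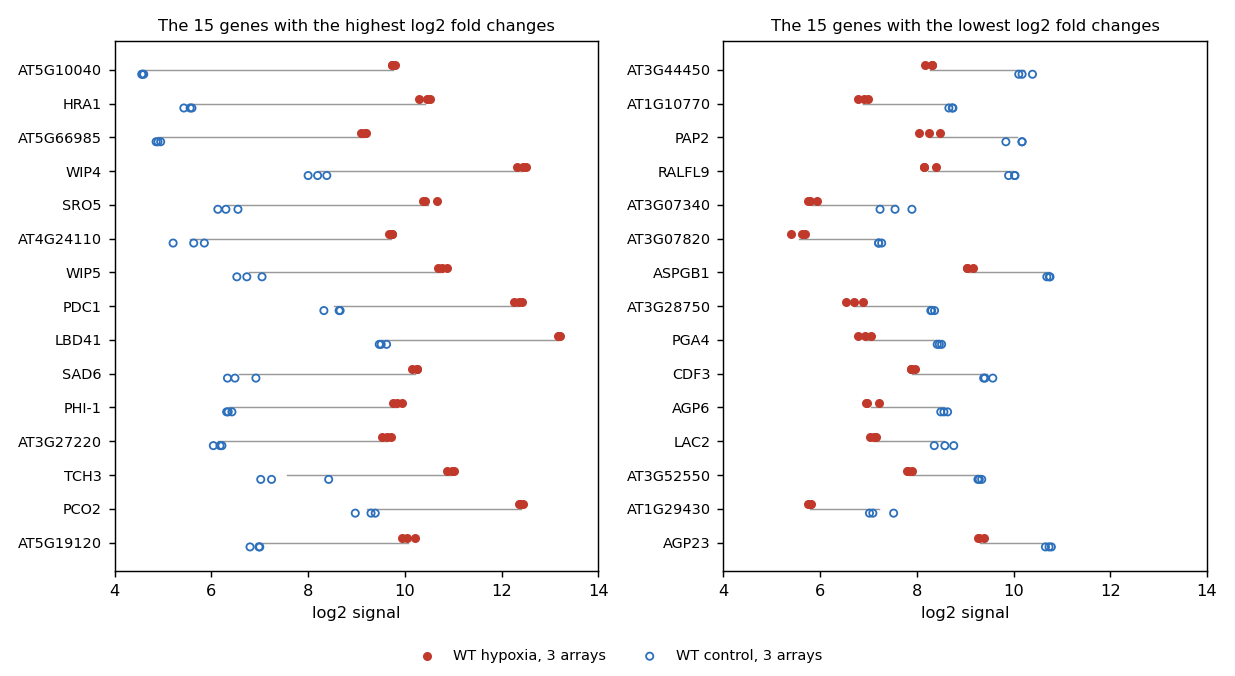
Log2 signal (horizontal axis) of the 15 named genes with the highest and the 15 with the lowest log2 fold change, with filled points for the 3 WT hypoxia arrays, open points for the 3 WT control arrays and a line between the group means. The groups are parted for every gene shown, and TCH3 is the gene whose WT control arrays spread most, with replicate 3 at 8.43.

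Fermentation rose mainly at its entry, pyruvate decarboxylase, and at the step that forms ethanol. PDC1, which turns pyruvate into acetaldehyde, read 12.25, 12.42 and 12.35 in WT hypoxia, against 8.66, 8.64 and 8.33 in WT control, and rose by 3.80 (standard error 0.10, adjusted p = 4.30e-12), or 13.9-fold. ADH1, the alcohol dehydrogenase that reduces acetaldehyde, read 12.50, 12.47 and 12.47 in WT hypoxia, against 9.86, 9.51 and 9.47 in WT control, and rose by 2.87. Neither gene had any array near the other group. The second decarboxylase gene PDC2 had a log2 fold change of 0.52, the alanine aminotransferase gene ALAAT1 0.68 and the lactate dehydrogenase gene LDH1 0.48. These 3 passed the adjusted p of limma (5.29e-04, 1.58e-05 and 6.21e-04) but not the 2-fold limit, so 2 of the 5 named fermentation genes were called.

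Named genes were few for the steps above and below pyruvate, 4 of 14 listed for glycolysis and 4 of 11 for mitochondrial carbon metabolism. All of them but PFK6 moved little, and the other listed genes were not seen. Of 4 named glycolysis genes only PFK6, a phosphofructokinase of the core set, was called, with 9.08, 9.03 and 9.18 in WT hypoxia, against 7.59, 7.43 and 7.57 in WT control, a log2 fold change of 1.56. The triose-phosphate isomerase gene TPI (0.08), the glyceraldehyde-phosphate dehydrogenase gene GAPC2 (0.13) and the glucose-phosphate isomerase gene PGI (0.24) did not pass the test. None of 4 named genes of mitochondrial carbon metabolism was called by limma, and their log2 fold changes lay between -0.21 for SDH1-1, a subunit of succinate dehydrogenase, and -0.09 for IDH5, a subunit of isocitrate dehydrogenase. At an unadjusted p under 0.05 the only one of the 4 was SDH1-1.

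Genes that meet reactive oxygen and nitric oxide were mixed. RBOHD, the plasma membrane NADPH oxidase that makes superoxide, read 10.05, 10.24 and 10.39 in WT hypoxia, against 7.64, 7.54 and 7.83 in WT control, a log2 fold change of 2.55. AOX1D, an alternative oxidase that takes electrons past the cytochrome path, read 8.22, 8.54 and 8.31 in WT hypoxia, against 7.13, 7.001 and 7.02 in WT control, a change of 1.30. Both genes were well apart between treatments. NDB2, an external NADH dehydrogenase (0.25), and UPOX (0.05) did not pass, and the copper/zinc superoxide dismutase gene CSD2 passed the adjusted p downwards (-0.86, adjusted p = 1.25e-04) without reaching 2-fold. HB1 (AT2G16060), the endogenous class-1 hemoglobin gene whose protein scavenges nitric oxide, read 9.06, 9.07 and 9.14 in WT hypoxia, against 6.14, 5.99 and 5.88 in WT control. It rose 8.51-fold, while HB2, the class-2 hemoglobin gene, read 6.91, 7.10 and 7.05 in WT hypoxia, against 6.83, 7.11 and 7.08 in WT control, with overlapping arrays and a log2 fold change of 0.01 (standard error 0.10).

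Among the hormone lists jasmonate had the most called members, but also the most named ones, so this rank is not read as a stronger response. Named were 4 of 11 listed genes of jasmonate synthesis and 7 of 11 of its signalling. For abscisic acid metabolism and response 2 of 11 and 5 of 11 were named. All 4 named genes of jasmonate synthesis and 6 of 7 of signalling were called higher, against 1.53% of all tested probe sets. The median log2 fold change was 1.71 for synthesis. Of the 11 named jasmonate genes only OPCL1 is named by the annotation. LOX4, a lipoxygenase at the start of the path, read 9.53, 9.66 and 9.61 in WT hypoxia, against 6.95, 7.01 and 7.36 in WT control, a log2 fold change of 2.49. The related LOX3 rose by 1.55. OPR3, the reductase that acts on the jasmonate precursor OPDA, read 10.99, 11.03 and 11.01 in WT hypoxia, against 9.04, 9.17 and 9.21 in WT control, and rose by 1.87 (standard error 0.07, adjusted p = 1.51e-10). OPCL1, which activates the precursor for its shortening in peroxisomes, lay at the limit with 1.04, and without WT control replicate 1 its value was 0.95 and it was not called. JAZ repressors, which respond to jasmonate and hold back its transcription factors, rose together with MYC2, the main factor they hold back: JAZ10 by 1.91, JAZ5 by 1.60, JAZ8 by 1.19, JAZ1 by 1.01 and MYC2 by 1.51. JAZ6 rose 2.84-fold. JAZ1 was not called without WT control replicate 1 or without WT hypoxia replicate 1, at a lowest value of 0.94, nor after renewed quantile normalization (0.96) or median centring (0.95).

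VSP1, the vegetative storage protein gene often read as a jasmonate marker, was the exception in that list. It read 11.73, 11.66 and 11.68 in WT hypoxia, against 9.12, 9.19 and 12.60 in WT control. WT control replicate 3 lay above all 3 hypoxia arrays while the other controls lay well below them, and the difference of 1.39 on the log2 scale (standard error 0.62, adjusted p = 0.152) did not pass in limma. Without that array it was 2.54 and passed (adjusted p = 6.03e-09). CYP94B3, a cytochrome P450 that inactivates jasmonoyl-isoleucine, was chosen after its values were seen. It read 8.79, 8.91 and 8.69 in WT hypoxia, against 6.03, 6.17 and 5.79 in WT control, a rise of 2.80.

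Abscisic acid genes of both directions of metabolism rose. NCED3, which commits carotenoids to abscisic acid, read 6.75, 6.89 and 6.76 in WT hypoxia, against 5.24, 5.52 and 5.45 in WT control, a log2 fold change of 1.39. CYP707A3, the hydroxylase that breaks the hormone down, read 8.08, 8.10 and 8.19 in WT hypoxia, against 6.29, 6.58 and 6.51 in WT control, a change of 1.66. Synthesis and breakdown genes were thus higher in the same arrays. Among 5 response genes RAB18 (1.80), RD26 (1.49) and RD29A (1.26) were called, while RD29B (0.36) and COR15A (0.03) did not pass. RAB18, a dehydrin of dry seeds and drought, read 10.64, 10.61 and 10.73 in WT hypoxia, against 9.30, 9.26 and 8.00 in WT control, and its value was 1.38 without WT control replicate 3. With the 3' excess as a covariate it was 1.10 and not called.

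Ethylene was represented by few named probe sets. ETR2, an ethylene receptor of the core set, read 7.97, 7.94 and 7.99 in WT hypoxia, against 6.72, 6.72 and 6.79 in WT control, and rose by 1.22 (standard error 0.08, adjusted p = 4.27e-08). ACO1, an ACC oxidase of ethylene synthesis, read 8.02, 8.02 and 8.25 in WT hypoxia, against 7.20, 6.78 and 7.02 in WT control. Its change of 1.10 was near the limit, and at 0.99 it was not called without WT control replicate 2. EIN3, the transcription factor of the pathway, whose protein rather than transcript is known to be regulated, had 0.28.

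Of 12 listed calcium and touch genes 8 are named here, 5 of them only by the study. Of these 8, 6 were called higher, against 1.53% of all tested probe sets (median 1.35, with 2 of 3 among annotation names). TCH3, a calmodulin-like gene first found through touch, read 11.01, 10.86 and 10.98 in WT hypoxia, against 7.02, 7.25 and 8.43 in WT control. The hypoxia arrays lay within 0.15 of each other, while WT control replicate 3 was high, and the log2 fold change of 3.39 became 3.82 without it. CML38, a calmodulin-like gene of the core set, read 9.31, 9.17 and 9.24 in WT hypoxia, against 6.39, 6.28 and 6.21 in WT control, a change of 2.95. The calcium pump gene ACA1 rose by 1.41, CML40 by 1.29 and the calcium-dependent kinase gene CPK28 by 1.24. TCH2 (0.93) and CML37 (0.23) were not called, although TCH2 passed the adjusted p. With the 3' excess as a covariate CML40 was not called either, at 0.96.

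Xyloglucan endotransglucosylases, enzymes that cut and rejoin a wall polymer, were mixed. Of 11 named members XTH23 and TCH4 were called higher, by 2.81 and 1.96, and 6 in all passed the adjusted p upwards and 1 downwards, with a median of 0.70. XTH23 read 9.29, 9.43 and 9.16 in WT hypoxia, against 6.35, 6.59 and 6.51 in WT control. TCH4, which encodes XTH22, read 10.72, 10.53 and 10.69 in WT hypoxia, against 8.89, 8.84 and 8.35 in WT control. The WT groups did not overlap for 10 of the 11 members, these among them, as was true of 36.2% of all tested probe sets. Only the study names 8 of the 11, so this count is not independent of these arrays. The other members had values from -0.73 for XTH6 to 2.70 for XTH25. XTH25 read 10.03, 10.16 and 10.25 in WT hypoxia, against 8.12, 8.41 and 5.82 in WT control, and did not pass (adjusted p = 0.0578). WT control replicate 3 is the low one, and the value was 1.88 without it. XTH25 was called on WT arrays alone (adjusted p = 0.00504), and with the 3' excess as a covariate XTH16 was called at 1.04.

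Most named stress transcription factors were called higher, but many listed ones were not seen. Names were at hand for 7 of 16 listed WRKY factors and 4 of 14 listed zinc finger and ERF factors. The study alone names 4 and 3 of these. Of the 7 WRKY factors, which bind W-box promoters in defence and stress, 5 were called higher, against 1.53% of all tested probe sets. All 7 passed the adjusted p, with a median of 1.57 (1.21 over the 3 that the annotation names, of which 2 were called). WRKY18 read 9.43, 9.40 and 9.57 in WT hypoxia, against 7.05, 7.05 and 7.43 in WT control, a log2 fold change of 2.29. WRKY53 read 7.74, 7.78 and 7.98 in WT hypoxia, against 5.64, 5.73 and 5.82 in WT control, a change of 2.11. WRKY40, WRKY33 and WRKY22 rose by 1.95, 1.57 and 1.21, and WRKY6 and WRKY75 had 0.86 and 0.77. Each hypoxia array lay above every control array by at least 1.98 for WRKY18 and 1.93 for WRKY53.

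Among 4 named zinc finger and ERF factors of stress, ERF2 (1.79), ERF1A (1.13) and the zinc finger repressor STZ (1.07) were called, and ERF6 had 0.60. STZ read 10.30, 10.33 and 10.35 in WT hypoxia, against 9.27, 9.22 and 9.27 in WT control, a small but even difference (standard error 0.08, adjusted p = 2.53e-07). With the 3' excess as a covariate STZ (0.998) and ERF1A (0.90) fell short of 2-fold. Further regulators, chosen after their values were seen, included the heat shock factor gene HSFC1 (2.46), the AP2/ERF gene AT1G64380 (2.74) and the ERF genes ERF53 (2.02) and ERF4 (1.96). In the heat shock list 1 of 8 named members was called, HSP90.1 with 1.25. In all 5 passed the adjusted p upwards, among them HSP70 (0.63), MBF1C (0.57) and HSFA2 (0.56) without reaching 2-fold. The median was 0.56, and -0.04 over the 3 members that the annotation names. Likewise chosen, the receptor-like kinase gene CRK10 (2.87), the transporter gene PEN3 (1.90) of pathogen defence and the MAP kinase gene MPK3 (1.22) were also called higher.

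**Figure D3:**
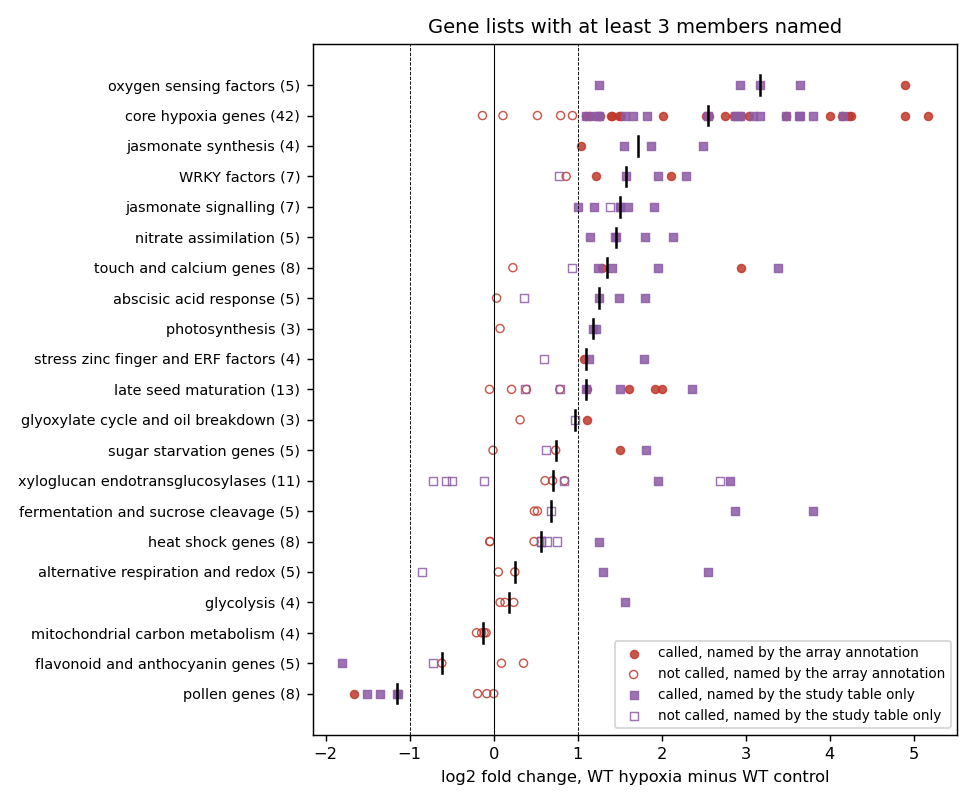
Log2 fold change of WT hypoxia minus WT control (horizontal axis) for each named member of the 21 gene lists with at least 3 named members, ordered by the list median (black bar), with the number of members in brackets. Filled symbols were called; circles are named by the array annotation and squares only by the study's tables. Oxygen sensing and core hypoxia genes lie farthest right, with medians of 3.17 and 2.55, and pollen genes farthest left, with -1.15. Over annotation names the medians were 4.89 for oxygen sensing (1 gene), 2.27 for core hypoxia and -0.14 for pollen genes.

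Genes of nitrogen and sugar metabolism went in both directions. All 5 named genes of nitrate assimilation were called higher, against 1.53% of all tested probe sets, with a median of 1.45. All 5 are named only by the study. NIR1, the nitrite reductase of plastids, read 10.61, 10.71 and 10.70 in WT hypoxia, against 8.34, 8.50 and 8.79 in WT control, and rose by 2.13 (standard error 0.10, adjusted p = 3.10e-09). NIA2, the main nitrate reductase, read 11.42, 11.47 and 11.59 in WT hypoxia, against 9.94, 9.74 and 10.44 in WT control, a rise of 1.45. LBD37, a repressor of nitrogen-responsive genes, rose by 1.80, UPM1, which makes the siroheme cofactor of nitrite reductase, by 1.44 and the glutamate synthase gene GLT1 by 1.15. Reductases, cofactor synthesis and a repressor of the path were thus higher together. In contrast the glutamine synthetase gene GLN1;4 fell by 1.08 on the log2 scale and the asparaginase gene ASPGB1, which frees ammonia from asparagine, by 1.65. LSU1 and ATSDI1, genes known from sulfur deficiency and chosen after their values were seen, rose by 1.82 and 1.84.

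Genes of low sugar status were called higher in 2 of 5 named members (1 of 3 among annotation names), against 1.53% of all tested probe sets. KFB20, an F-box gene raised when sugar is scarce, read 8.57, 8.57 and 8.55 in WT hypoxia, against 6.61, 6.78 and 6.85 in WT control, a log2 fold change of 1.82. SEN5 rose by 1.51, while the SnRK1 subunit gene AKINBETA1 (0.74), BZIP1 (0.62) and GAT1_2.1 (-0.01) were not called. Both named trehalose-phosphate synthase genes of class II rose, TPS11 by 1.62 and TPS8 by 1.09 (0.95, and not called, with the 3' excess as a covariate). The plastid glucose-phosphate translocator gene GPT2, which sugar is known to raise, read 10.97, 10.72 and 10.96 in WT hypoxia, against 12.34, 12.35 and 12.05 in WT control, and fell by 1.36 on the log2 scale. Of the photosynthesis list the carbonic anhydrase genes CA2 (1.22) and CA1 (1.18) rose and the antenna gene LHCB4.1 had 0.08. CA1 was 10.93 on WT control replicate 3 and 10.19 and 10.15 on the other WT control arrays, and its change was 1.43 without replicate 3. Of 69 chloroplast-encoded genes named by the annotation, 2 were called higher, rpl16 (1.34) and atpH (1.28), with a median of 0.18. Over all tested probe sets 1.53% were called higher, so nothing is read from these 2 genes.

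Late seed maturation genes, which protect the embryo as it dries, were higher in WT hypoxia, but their size rests on WT control replicate 3. Of 13 named members 7 were called higher (4 of 8 among annotation names) and 0 lower, against 1.53% and 0.290% of all tested probe sets. The median was 1.10. EM1, a LEA protein of the embryo, read 8.24, 8.25 and 8.67 in WT hypoxia, against 6.42, 6.56 and 5.11 in WT control, with a log2 fold change of 2.36 and a standard error of 0.73 (adjusted p = 0.0399). AT3G15670, a LEA gene, read 11.46, 11.54 and 11.57 in WT hypoxia, against 10.28, 10.27 and 8.00 in WT control, a change of 2.01 that became 1.25 without WT control replicate 3 and was then not called. It was also not called without any 1 of the WT hypoxia arrays (1.98 to 2.04) or without AtHb1 control replicate 3 (2.01). The next 2, AT3G17520 and LEA4-5, rose by 1.93 and 1.61 (1.32 and 1.34 without that array, and still called). WT control replicate 3 was the lowest WT control array for 12 of the 13 genes, and without it 3 were called. With the 3' excess as a covariate, or with a variance trend and robust fit in limma, 4 were called, and EM1, AT3G15670 and AT3G17520 were not. RAB18, of the abscisic acid response list, was not called in these settings either. EM1 had 1.77 with that covariate. It was not called without any 1 of the 6 WT arrays either, and was lowest, at 1.90, without WT control replicate 3.

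Mean log2 signals over the 13 genes were 8.60, 8.64 and 8.78 in WT hypoxia, against 7.85, 7.85 and 7.07 in WT control. In AtHb1 plants they were 8.15, 7.86 and 8.57 under hypoxia, against 8.53, 9.85 and 9.68 at control. All 3 WT hypoxia arrays were above all 3 WT control arrays, while the AtHb1 arrays ran the other way with a small overlap. The neighbouring genes GASA3 and GASA2, small peptide genes of the gibberellin family chosen after their values were seen, went with this group, at 2.26 and 2.24 (1.45 and 1.87 without WT control replicate 3, and then not called). ICL, the isocitrate lyase of the glyoxylate cycle, read 9.41, 9.41 and 9.40 in WT hypoxia, against 8.65, 8.40 and 7.83 in WT control. It was called at 1.11 and not without WT control replicate 3 (0.88), and MLS, the malate synthase of the same cycle, had 0.97 (adjusted p = 0.0509). LEC2, a master regulator of maturation, passed the adjusted p downwards at -0.54.

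**Figure D4:**
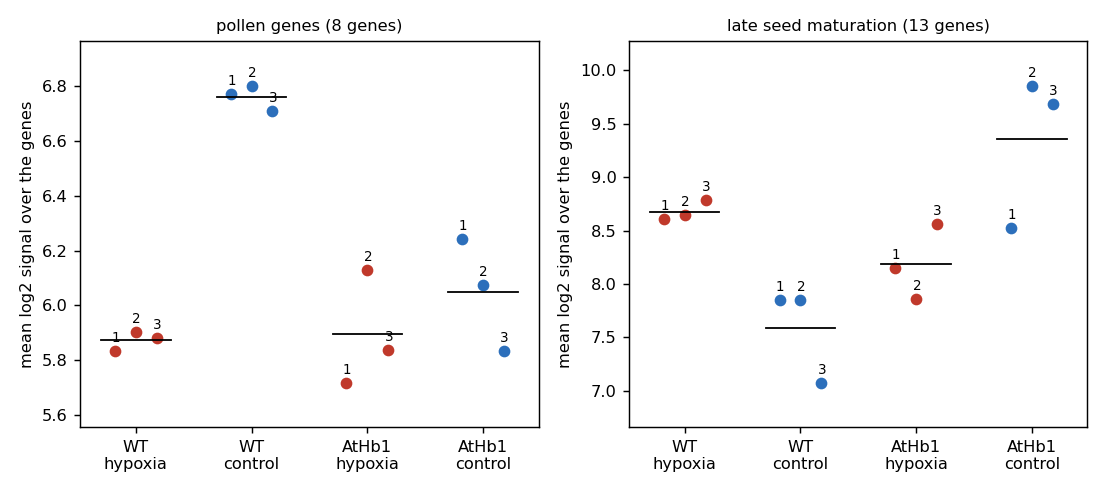
Mean log2 signal over the 8 named pollen genes (left) and the 13 named late seed maturation genes (right), with 1 point for each array, its replicate number and a line for the mean of each of the 4 groups. Pollen genes are at 5.83 to 5.90 in WT hypoxia and 6.71 to 6.80 in WT control, and in the right panel WT control replicate 3 is the lowest array at 7.07.

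Among the gene lists, that of pollen had the most members called lower, though only 8 of its 19 loci are named here. Of these 8, 5 were called lower and 0 higher, against 0.290% of all tested probe sets called lower. Their median was -1.15, against -0.03 over all probe sets. Of the 5 called only AT3G07820 is named by the annotation. The other annotation names, ANX1, ANX2 and AT5G10130, lay between -0.19 and 0.00 at dim signals, and the median of the 4 annotation names was -0.14. AT3G07820, annotated as the pollen polygalacturonase PGA3, read 5.40, 5.63 and 5.68 in WT hypoxia, against 7.27, 7.21 and 7.21 in WT control, and fell by 1.66 on the log2 scale (standard error 0.20, adjusted p = 4.11e-05). AGP6, an arabinogalactan protein needed for pollen, read 6.97, 7.23 and 6.95 in WT hypoxia, against 8.50, 8.64 and 8.56 in WT control, a change of -1.51. AGP11, its close relative, read 6.24, 6.20 and 6.23 in WT hypoxia, against 7.80, 7.52 and 7.42 in WT control. BCP1 and VGDH2, a pectin methylesterase of the pollen tube, had -1.15 and -1.14. The WT control arrays were above all other 9 arrays of the study for all 5 of these genes.

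Further genes among the 15 lowest are of similar kinds. PGA4, a polygalacturonase, read 6.79, 6.93 and 7.05 in WT hypoxia, against 8.51, 8.47 and 8.42 in WT control (-1.54). AGP23, another arabinogalactan peptide of pollen, read 9.26, 9.28 and 9.38 in WT hypoxia, against 10.73, 10.78 and 10.66 in WT control (-1.42). AT1G10770, annotated as similar to a pectinesterase, had -1.82, AT3G28750, of unknown function, -1.61 and RALFL9, a peptide of the RALF family, -1.75. The probe set of RALFL9 may also bind related genes. The share of pollen RNA and the amount of these transcripts per pollen grain cannot be told apart here, and the part of pollen in the other falls was not tested. Over all 66 probe sets called lower, 57 had every WT control array above the other 9 arrays (7.81% of all tested probe sets), and for 211 of the 348 called higher every WT control array was below the other 9 (6.97% of all). The calls themselves already set WT control apart from the 3 WT hypoxia arrays, so these counts are descriptions only and nothing is read from the shares beside them.

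Some of the genes that fell are known from light and clock pathways, and both treatments were in darkness. CDF3, a DOF factor of the photoperiod path, read 7.88, 7.88 and 7.97 in WT hypoxia, against 9.41, 9.57 and 9.38 in WT control, a change of -1.54 on the log2 scale (standard error 0.10, adjusted p = 1.58e-08). LNK3 (AT3G12320), a clock-regulated gene, read 8.00, 7.90 and 7.99 in WT hypoxia, against 9.16, 9.19 and 9.16 in WT control (-1.21). The B-box factor gene STH and the CONSTANS-like gene COL2 had -1.12 and -1.01, and COL2 was not called without WT control replicate 3 (-0.95). CIB3 (AT3G07340), a bHLH factor that binds cryptochrome 2, had -1.74. The clock gene GI, the 1 named member of its list, had -0.27 and did not pass. LNK3, STH, COL2 and CIB3 were grouped after their values were seen.

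The lowest named gene was AT3G44450, with 8.32, 8.17 and 8.31 in WT hypoxia, against 10.11, 10.18 and 10.39 in WT control, a change of -1.96 on the log2 scale (standard error 0.13, adjusted p = 1.60e-08). PAP2, a MYB factor of anthocyanin synthesis, read 8.25, 8.05 and 8.48 in WT hypoxia, against 9.84, 10.17 and 10.18 in WT control, a change of -1.80. It was the 1 called member of 5 named flavonoid genes. Its relative PAP1 (-0.72) and the glycosyltransferase gene UGT78D2 (-0.62) passed the adjusted p without reaching 2-fold, and the proanthocyanidin gene BAN of the seed coat had 0.35. LAC2, a laccase, fell by 1.47 on the log2 scale, SAUR62 (AT1G29430), an auxin-responsive gene whose probe set may also bind relatives, by 1.42, and AT3G52550, a gene without a known function, by 1.46.

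The hypoxia response of the WT siliques was set beside that of the AtHb1 siliques, which represent 1 transgenic line. In AtHb1 plants 153 probe sets (0.673%) were called higher under hypoxia and 101 (0.444%) lower. Of these, 102 were shared with the 348 called higher in WT, which is 29.3% of the WT calls and 66.7% of the AtHb1 calls. Shared falls numbered 4, or 6.06% of the WT calls and 3.96% of the AtHb1 calls, and they were CDF3, LNK3, STH and COL2. The difference of the responses, WT minus AtHb1, was called for 456 probe sets (2.00%), 343 higher in WT (1.51%) and 113 lower in WT (0.497%). With the 3' excess as a covariate, 346 were called higher and 117 lower in WT. In the main fit the difference was called for 146 of the 348 that rose in WT and for 45 of the 66 that fell. Median log2 fold changes in AtHb1 were 0.58 for the probe sets called higher in WT and -0.16 for those called lower. These sets were chosen by the WT response, which is 1 side of the difference, so their counts and medians are descriptions. Seen from the other side, the 153 probe sets called higher in AtHb1 had medians of 1.43 in WT and 1.41 in AtHb1, with the difference called for 21, and the 101 called lower in AtHb1 had medians of 0.51 in WT and -1.28 in AtHb1, with the difference called for 82.

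The groups of genes differed in this. Of the core hypoxia genes the difference was called higher in WT for 6 and lower for 1, AT5G26200, a mitochondrial carrier-like gene with 2.87 in WT and 3.94 in AtHb1. AT5G10040 had 5.17 in WT and 6.16 in AtHb1, HRA1 4.89 and 4.59, SRO5 4.16 and 3.98, and PDC1 3.80 and 3.61, and for these 4 the difference was not called. WIP4 (4.23 in WT, 2.67 in AtHb1), PCO1 (2.93 and 1.56) and PCO2 (3.17 and 1.92) responded more in WT, and the adjusted p values of the difference were 3.37e-04, 1.12e-04 and 2.00e-04. All 5 nitrate genes did as well, with a median of 1.45 in WT and 0.23 in AtHb1. TCH3 had 3.39 in WT and 0.40 in AtHb1, a difference of 2.99 (adjusted p = 1.78e-04), and AT5G19240, of unknown function, had 2.92 and 0.42, a difference of 2.50. Late maturation genes were lower after hypoxia in AtHb1, where 7 of 13 were called lower and the median was -1.07. HB1 had 3.09 in WT and -0.78 in AtHb1, but in AtHb1 plants the probe set reads the transgene as well.

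**Figure D5:**
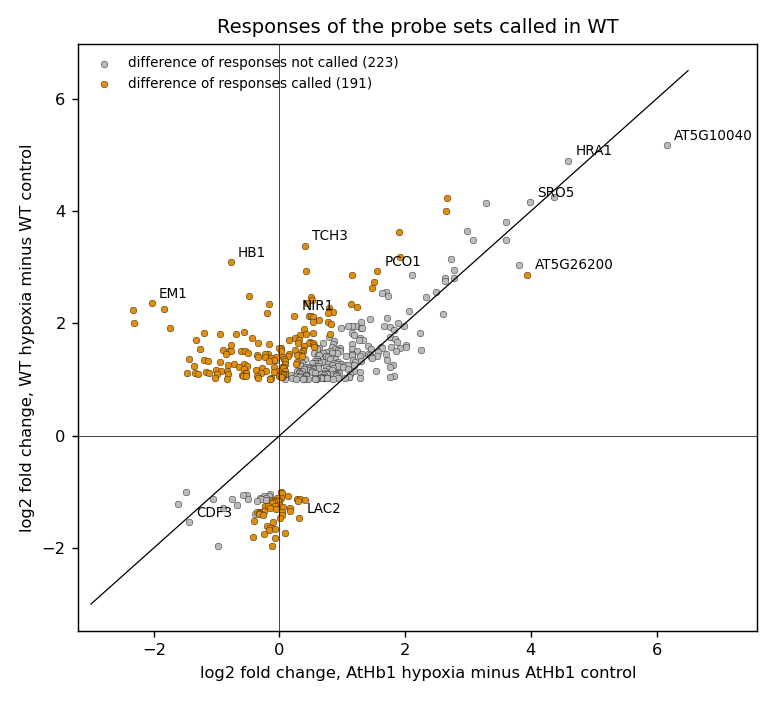
Log2 fold change of WT hypoxia minus WT control (vertical axis) against AtHb1 hypoxia minus AtHb1 control (horizontal axis) for the 414 probe sets called in WT, with a diagonal of equal responses. The 191 probe sets whose difference of responses was called (orange) lie away from the diagonal, among them NIR1, TCH3 and EM1, while HRA1, SRO5 and CDF3 are close to it.

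Where the signal at control lay differed as well. Over the probe sets called higher in WT the median log2 signal was 9.30 in WT hypoxia, against 7.71 in WT control, and 9.08 in AtHb1 hypoxia, against 8.55 in AtHb1 control. Over those called lower it was 7.29 in WT hypoxia, against 8.61 in WT control, and 7.54 in AtHb1 hypoxia, against 7.85 in AtHb1 control. WT control was thus the group farthest from the other 3 in both sets, which were chosen through that contrast. Every AtHb1 array also had a larger 3' excess than every WT array, so genotype and RNA length cannot be told apart in these signals.

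Calls at neighbouring genes were counted as a description. Of 6265 pairs of neighbouring protein-coding genes with both members named, 11 pairs had both called, 8 with both higher and 3 in opposite directions. Among all 13775 named genes 341 were called higher and 62 lower, and the pair count was not tested against that rate. The pairs that rose together included COR47 and ERD10, dehydrin genes of cold and drought (1.57 and 1.30), PGIP2 and PGIP1, inhibitors of polygalacturonases (1.60 and 1.03), and GASA3 and GASA2. The opposite pairs were SAD6 (3.63) beside TED6 (-1.13), PCO2 (3.17) beside AT5G39880 (-1.16), and the glutaredoxin-like genes AT3G62950 (1.14) and AT3G62960 (-1.15).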

How the data were processed

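RNA of pooled siliques was hybridized to 12 ATH1 arrays, 3 for each of 4 groups, and groups and replicates were taken from the sample labels. The deposited values are log2 signals per probe set, which the authors made from MAS5-processed scans with RMA (background correction, normalization across arrays and a summary over probes), with no version stated in the sources used here. They were used as deposited. limma 3.58.1 in R 4.3.3 was fitted with 1 mean per group over all 12 arrays (lmFit, contrasts.fit, eBayes), with Benjamini-Hochberg adjustment over 22746 probe sets in each comparison, and errors are moderated standard errors. Simulated arrays with seeded changes were used to check the fit. Tables and figures used Python 3.11.15, pandas 2.3.3 and matplotlib 3.10.9.

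The array annotation named 1 gene for 13436 probe sets and the study's tables named 489 more, while 503 name several genes, 74 a gene not in the reference and 8244 carry no name here. A gene with several probe sets is given by the brightest. The 35 gene lists (404 loci) and the members named were chosen with earlier results of these data known. Named genes are the 15 highest and 15 lowest changes among called probe sets of 1 gene, with WT groups that do not overlap, up to 4 passing members of each list, all members of the oxygen sensing, hemoglobin and ethylene receptor lists, and the 10 smallest adjusted p of the difference of responses. Any other gene was picked with its values in view. Replicate numbers did not pair arrays. Alternatives were other fold limits, the unadjusted p, WT arrays alone, a variance trend with robust eBayes, weighted arrays, removal of dim probe sets (mean log2 under 6 in both WT groups), renewed quantile normalization, median centring, the mean 3' minus 5' control signal as a covariate, a replicate block, the mean over a gene's probe sets and each array left out in turn. The study's tables of fold changes and p-values were not used, other than for gene names.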

Additional observations from a re-analysis of the deposited data

Results flagged for a closer look

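The hypoxia responses of WT and AtHb1 siliques differed by a test of the difference itself, the interaction term in limma (WT minus AtHb1), for 456 probe sets, and the named genes among them follow. The values are differences of log2 fold changes, and their causes were not tested.

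Of the core hypoxia genes 6 of 42, and of the oxygen sensing factors 2 of 5, responded more in WT than in AtHb1. The differences were 3.87 for HB1, whose probe set also reads the transgene, 1.73 for SAD6, 1.56 for WIP4, 1.37 for PCO1, 1.35 for WIP5 and 1.25 for PCO2. The nitrate genes had 1.90 for NIR1, 1.69 for NIA2, 1.48 for LBD37 and 1.11 for UPM1. The stress regulators had 1.57 for WRKY53, 1.55 for WRKY33, 1.42 for STZ and 1.06 for WRKY18. TCH3 had 2.99, KFB20 1.40 and CA2 1.16.

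Of the genes with the smallest adjusted p of the difference, AT5G19240 had 2.50, CWLP, a cell wall protein gene, 2.19, AT1G49500 1.78, AT5G44580 1.55 and AT2G38820 1.47. AT5G44580 was not called in WT itself, at 0.91. Late maturation genes had 4.39 for EM1, 4.32 for AT3G15670, 3.67 for AT3G17520 and 2.38 for LEA4-5. RAB18 of the abscisic acid response had 2.75, and ICL had 1.64. In the AtHb1 response the values of EM1 and AT3G15670 were -2.03 and -2.31.

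Of the 113 probe sets with a lower response in WT than in AtHb1, 45 were called lower in WT, 1 was called higher and 67 were not called. For named genes that fell in WT the differences were -1.83 for AT3G07340, -1.78 for LAC2, -1.74 for AT1G10770, -1.59 for AT3G07820, -1.51 for RALFL9, -1.495 for ASPGB1, -1.47 for AT3G52550, -1.46 for AT1G29430, -1.45 for PGA4, -1.41 for AT3G28750, -1.38 for PAP2, -1.15 for AGP23, -1.11 for AGP6 and -1.04 for AGP11. Pollen genes as a group had a median of -0.11 in the AtHb1 response.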

How the results depend on the processing

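Without a fold limit 1979 probe sets were called higher and 1622 lower in WT hypoxia, and with a 1.5-fold limit 824 and 327. The difference of responses then gave 1206 higher and 1587 lower in WT with no limit, and 797 and 613 with 1.5-fold. Both alternatives take in smaller changes by construction. Under the other settings the counts stayed within 1.5 times: 306 (median centring) to 358 (unadjusted p) higher, and 66 to 85 lower. Leaving out each array in turn gave 328 to 353 higher and 66 to 77 lower, and for the difference 306 to 393 higher and 94 to 141 lower in WT. Of the 348 called higher 278, and of the 66 called lower 57, were called whichever array was left out. Leaving out WT control replicate 3 cost 35 and 5 of them. Same-numbered arrays did not pair (correlations of -0.11, 0.00 and -0.07), and with the replicate number as a block 348 and 66 were called in WT, and 346 and 113 for the difference. The block ended the call of AT3G15670.

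None of 87 genes named by the rule reversed in any of 23 settings, and 80 of the 85 called ones were called whichever array was left out. Settings that change only the limits or the variance, and those without an AtHb1 array, keep the WT log2 fold change. They could therefore not reverse a gene. Like JAZ1, OPCL1 also fell short of 2-fold after quantile normalization (0.98) and median centring (0.98). Array signals saturate and have a floor, so large fold changes from dim controls may be understated. The promoter motif alternatives were not run, since no sequence was at hand, and the difference of responses has no fit on WT arrays alone.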

Other observations

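Some called genes of detoxification and pathogen response are given here as single genes picked because they rose. Their families were not counted. The glutathione S-transferase gene GSTU5 read 11.05, 10.86 and 10.83 in WT hypoxia, against 8.85, 9.06 and 9.35 in WT control, a log2 fold change of 1.83. GSTF8 read 11.68, 11.64 and 11.67 in WT hypoxia, against 10.16, 10.09 and 10.48 in WT control, a change of 1.42. GSTU4 had 1.31, GSTU13 1.11 and GSTF6 1.01, and GSTU4 (0.99) and GSTF6 (0.99) were not called without WT control replicate 3. BGL2, the pathogenesis-related glucanase PR-2, read 9.84, 9.92 and 9.88 in WT hypoxia, against 8.72, 8.30 and 8.40 in WT control, a change of 1.41, and PR5 had 1.27. The syntaxin genes SYP122 and SYP121, which serve secretion at the plasma membrane in defence, had 1.36 and 1.31.

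Single genes of abscisic acid perception and sugar supply were picked in the same way. The receptor genes PYL2 and PYL7 had 1.35 and 1.20, and AHG1, a phosphatase of the same signal path in seeds, read 8.47, 8.47 and 8.34 in WT hypoxia, against 6.65, 6.83 and 6.59 in WT control, a change of 1.74. The NAC factor genes NAC032 and NAC019 had 1.53 and 1.47. The neutral invertase gene A/N-InvC, whose enzyme splits sucrose, read 10.12, 10.01 and 10.31 in WT hypoxia, against 8.20, 8.41 and 8.44 in WT control, a change of 1.80. The sugar transporter genes ERD6 and STP1 had 1.71 and 1.15, and GolS2, the galactinol synthase of raffinose synthesis, 1.74. The difference of responses was called higher in WT for BGL2, SYP122, NAC019, A/N-InvC, ERD6 and GolS2, and not for GSTU5, GSTF8, SYP121, PYL2, AHG1 or NAC032.

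AT3G60420 was the only called gene with more than 1 probe set, and its probe sets disagreed, with log2 fold changes of 1.46 and -0.06.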
